A study of Bos taurus with 11 samples.

Results

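The regions described here are new sites of H3K4me3, the histone mark of promoters, that appeared after butyrate inside chromatin that carried the Polycomb mark H3K27me3 in untreated cells. They were taken from the deposited table of called intervals by 1 rule: a butyrate H3K4me3 interval that overlapped no control H3K4me3 interval and overlapped a control H3K27me3 interval by at least 1 bp. The members were thus chosen by the called H3K4me3 intervals of both conditions and the control H3K27me3 intervals. The rule was met by 4848 of the 33804 butyrate H3K4me3 intervals, in a table of 371758 intervals in all. The cells were rumen epithelial primary cells (REPC), lining cells of the cattle forestomach grown in culture, which came from 1 Holstein bull calf of 2 weeks that had been fed milk replacer only. They were kept with 5 mM butyrate for 24 h or left without it as control, and H3K4me3, H3K27me3, H3K27ac, H3K4me1 and the DNA-binding protein CTCF were profiled by chromatin immunoprecipitation and sequencing, with 1 library per mark and condition.

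Butyrate is a short-chain fatty acid that microbes release in the rumen, and it inhibits histone deacetylases. H3K27me3 is written by Polycomb repressive complex 2 over silent genes, above all the regulators and signalling genes of other cell lineages, and it often lies over CpG islands, the CpG-rich stretches found at many promoters. H3K4me3 is written by the SET1 and MLL complexes at CpG islands and is usually accompanied by H3K27ac where the gene is active. Promoters with H3K4me3 and H3K27me3 together are called bivalent, H3K4me1 marks enhancers and the flanks of promoters, and CTCF shapes chromatin loops and borders.

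Values are signal units of the deposited table, as the average over an interval unless a peak value is named. The table gives a signal only for called intervals, so a site without an interval in a library has no value there, and H3K4me3 below the calling threshold in control cannot be told apart from none. With 1 library per condition there is no replicate error and no test between conditions. The 95% confidence intervals of shares are exact binomial (Clopper-Pearson), cover counting error only and treat neighbouring intervals as independent. Because the cells were measured in bulk, the marks may lie on the same chromatin or in different cells, and more cells with a mark cannot be told apart from more signal per cell. The 10 libraries held 26824 to 54071 intervals, with 33804 for butyrate and 27292 for control H3K4me3, and 32088 for butyrate and 26824 for control H3K27me3. In the check of the cell type, control H3K4me3 lay within 2 kb of the start of 9 of 18 epithelial identity genes, of 12 of 21 fibroblast, smooth muscle and endothelial markers and of 2 of 13 immune markers. Control H3K27ac lay at 8, 6 and 2 genes of the same lists, the keratin gene KRT5 and the collagen gene COL1A1 among them, and the epithelial genes TP63 and CDH1 had neither mark.

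New H3K4me3 was frequent inside Polycomb chromatin. Of all butyrate H3K4me3 intervals, 9943 (29.4%) had no control counterpart, and 4848 of these (48.8%; 47.8% to 49.7%) lay in control H3K27me3, which covered 10.0% of the chromosomes. This amounted to 18.1 new intervals per Mb of control H3K27me3, against 2.13 per Mb of the rest of the chromosomes. Of H3K4me3 intervals as a whole, 30.5% in butyrate (10298 of 33804) and 22.8% in control (6235 of 27292) lay in control H3K27me3. The opposite change was rare there: 137 of the 6235 control H3K4me3 intervals inside control H3K27me3 (2.20%) had no butyrate H3K4me3, against 2263 of 27292 control H3K4me3 intervals as a whole (8.29%). All these counts rest on the libraries that the rule used, so they describe the selection and are not a result about it. The members were compared with 3 other sets of butyrate H3K4me3 intervals: 5095 new ones outside control H3K27me3, 5450 inside it that overlapped control H3K4me3, and 18411 outside it that overlapped control H3K4me3.

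The rule set a low bar, but few members lay near it. Of the members, 99.5% were covered over at least 50% of their length by control H3K27me3 and 97.9% lay wholly inside. The smallest overlaps were 6 bp, for an interval of 39.8 signal units on chromosome 25 (35072393 to 35073876, UMD3.1) without a named gene nearby, and 32 bp, for an interval of 28.2 near POU2F2 on chromosome 18. Just outside were new intervals near CLPP (29.3 signal units) and TOR4A (16.4), which missed control H3K27me3 by 30 bp and 36 bp.

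As H3K4me3 sites the members were short and of low signal. Their median average value was 30.6 (range 15.1 to 144.75), above the 24.5 of new intervals outside H3K27me3 and well below the 64.1 and 68.7 of intervals that both libraries had inside and outside it. Their median length was 388 bp, against 294, 1070 and 1333 bp in the same order of sets. The peak value of 61.3% of them reached the 25% quantile of all butyrate H3K4me3 intervals (35) and that of 10.8% reached the median (80). Most of them lay apart from control H3K4me3. The median distance to the nearest control H3K4me3 interval was 12872 bp, and 986 members (20.3%) lay within 1 kb of one, against 46.3% of the new intervals outside H3K27me3, whose median distance was 1217 bp. Members within 1 kb of control H3K4me3 had a median average value of 28.5, and the 3862 others one of 31.1.

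**Figure D1:**
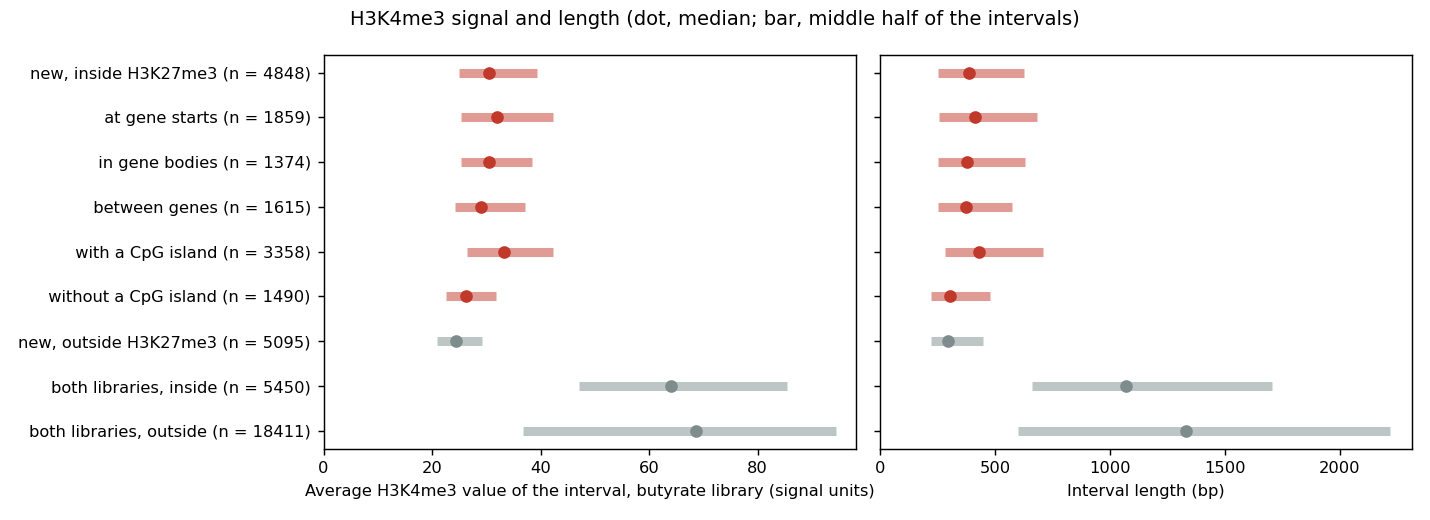
Average H3K4me3 value in the butyrate library (left) and interval length (right) of the 4848 new intervals inside control H3K27me3, of their subsets by place and CpG island, and of the 3 other sets of butyrate H3K4me3 intervals, with dots for medians and bars for the middle 50% of intervals. The members with a CpG island had a median of 33.3 and those without one a median of 26.3, and all subsets lay below the intervals that both libraries had.

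CpG islands set the members apart from other new sites. At least 1 island was counted for 3358 members (69.3%; 67.9% to 70.6%), against 711 new intervals outside H3K27me3 (13.95%; 13.0% to 14.9%), and among intervals of 300 to 500 bp the shares were 70.1% and 14.3%. Of the old sites 87.9% inside and 68.0% outside H3K27me3 had an island, and among those of 300 to 500 bp 74.9% and 33.2%. By place, 1859 members (38.3%) had their summit within 2 kb of a gene start, 1374 (28.3%) lay further inside a gene and 1615 (33.3%) lay between genes. The share at gene starts was 22.4% for the new intervals outside H3K27me3 and 58.9% for the old ones inside it. An island was found at 75.3% of the members at gene starts, at 67.0% of those in gene bodies and at 64.3% of those between genes, and 41.7% of the members with an island were at a gene start. Around the gene start 61.4% of the pairs of start and summit had the summit downstream, with a median distance of 528 bp, against 64.0% and 405 bp for old sites inside H3K27me3 and 59.2% and 1251 bp for new sites outside it.

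The strongest new intervals at gene starts lay at genes of nerve cells, ion transport and development, among others, and they carried no H3K27ac. By the naming rule these were the 12 members of highest average value, between 91.5 and 144.75, and each had a CpG island. H3K27me3 of the interval underneath was lower after butyrate for 10 of the 12, higher for 1 (a tRNA cluster, where the direction turns when the whole region is averaged) and not called after butyrate for 1. H3K27ac was called at 0 of the 12 in either library. Their genes include ATCAY, a brain protein that is mutated in a human ataxia, the kinesin family genes KIF21B, KIF1A and KIF26A, and the proton channel OTOP3. Also among them are the calcium pump ATP2A3, the potassium channel KCNK15, the transcription factors BHLHE23 and GATA5, and GGT1, which breaks down glutathione outside the cell.

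The member at ATCAY (chromosome 7, 21344897 to 21345612) had an H3K4me3 value of 125 after butyrate and no interval in control, and the nearest control H3K4me3 lay 13739 bp away. It sat in a control H3K27me3 interval of 37599 bp whose average was 9.03 after butyrate and 14.02 in control, and none of H3K27ac, H3K4me1 and CTCF was called in either library. KIF21B (chromosome 16, 81432419 to 81433596) had an H3K4me3 value of 109 and the steepest H3K27me3 difference of the 12, 18.8 after butyrate against 51.3 in control, with H3K4me1 called after butyrate only (37.1). At OTOP3 (chromosome 19, 57109280 to 57110978) H3K4me3 was 107, H3K27me3 was 12.1 after butyrate and 29.1 in control, and H3K4me1 was again called after butyrate only (42.6). These 3 genes thus gained H3K4me3 while Polycomb signal in the same interval was lower but still called.

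ATP2A3 (chromosome 19, 25196843 to 25198256) had an H3K4me3 value of 106, H3K27me3 of 11.3 after butyrate and 21.0 in control, and H3K4me1 in both libraries (36.0 and 33.5). KCNK15 (chromosome 13, 73866836 to 73867466) had H3K4me3 of 101, H3K27me3 of 10.7 after butyrate and 14.3 in control, and CTCF called after butyrate only (32.8). KIF26A (chromosome 21, 70312241 to 70312956) had H3K4me3 of 98.7, with CTCF of 60.2 after butyrate and 39.2 in control and H3K4me1 in control only (48.6). GATA5, a regulator of heart and gut development, had H3K4me3 of 93.2 on 1268 bp and kept most of its H3K27me3, 19.5 after butyrate against 23.7 in control.

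GGT1 (chromosome 17, 73450862 to 73454670) stood out by its width, 3808 bp, with an H3K4me3 value of 91.5, H3K4me1 of 73.2 after butyrate and 46.4 in control, and H3K27me3 of 11.4 after butyrate and 26.7 in control. TMEM40 (chromosome 22, 57027438 to 57029012) was the one of the 12 without butyrate H3K27me3; its H3K4me3 was 105 and its control H3K27me3 was 7.65, close to the median of all control H3K27me3 intervals (7.45). KIF1A and BHLHE23 had control H3K4me3 402 bp and 533 bp from the member, so there the new interval was added beside an old one (H3K4me3 of 105 and 104). The highest value of all, 144.75 on 253 bp of chromosome 3 (8109722 to 8109975), lay in a cluster of tRNA genes 113 bp from control H3K4me3, with H3K27me3 of 98.2 after butyrate and 91.7 in control. Over the whole joined region the direction was the opposite, 59.2 after butyrate against 91.7 in control. Copies of tRNA genes are nearly identical, and reads there are uncertain.

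**Figure D2:**
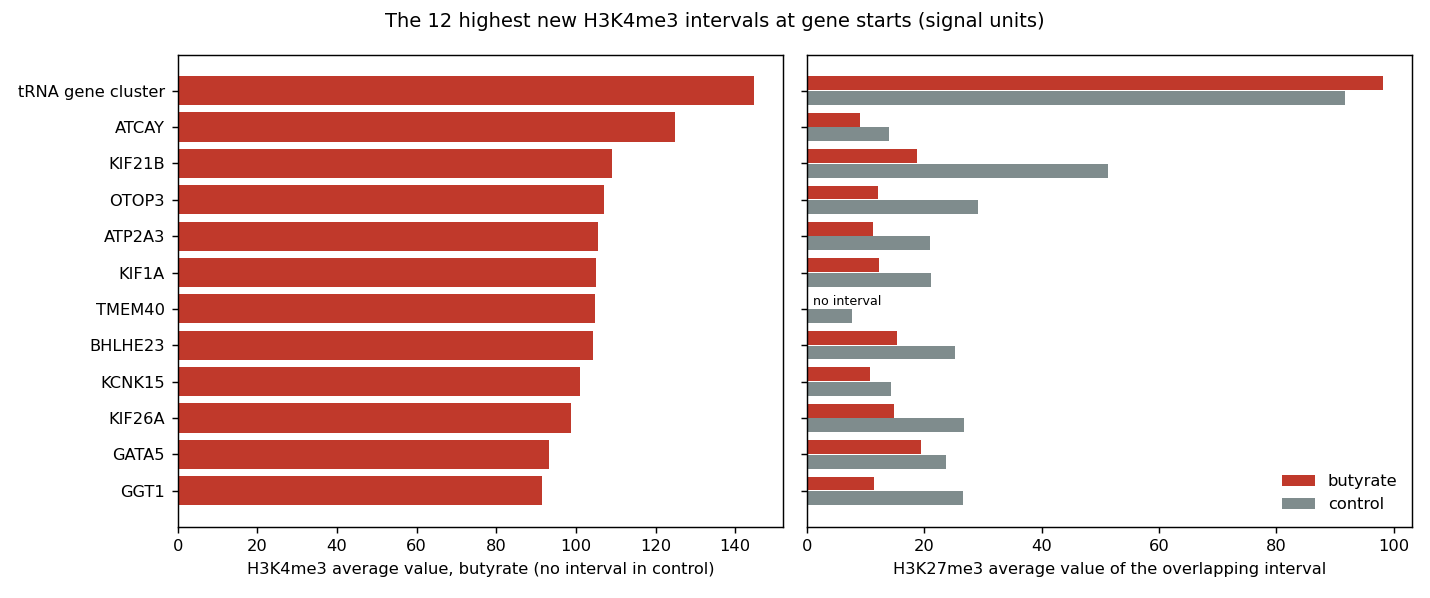
The 12 new H3K4me3 intervals of highest average value at gene starts: left, H3K4me3 in the butyrate library, where the control library had no interval; right, H3K27me3 of the overlapping interval in the butyrate library (red) and the control library (grey), all in signal units. H3K27me3 was lower after butyrate at 10 of the 12 sites, at KIF21B 18.8 against 51.3.

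Away from gene starts the strongest members were lower, reaching 87.9 in gene bodies and 107 between genes, against 144.75 at gene starts. In gene bodies they lay in SH2D3C (87.9), IL17REL (80.7), NAGS (79.9), NOTUM (79.3) and MUC5AC (77.4). NAGS, the enzyme that makes the activator of the urea cycle, held one of the longest members, 3941 bp on chromosome 19 (44485708 to 44489649), with H3K27me3 of 14.6 after butyrate and 32.8 in control. NOTUM, which switches off secreted Wnt proteins, had H3K27me3 of 13.2 after butyrate and 35.6 in control, and at MUC5AC, a mucin of gel-forming mucus, CTCF was 66.5 after butyrate and 35.6 in control. Between genes, where the highest value was 107, the highest among members with a listed gene of established symbol were near MPPED1 (102), RTBDN (89.97) and PRDM12 (87.6), a factor of pain-sensing neurons. The member near PRDM12 lay only 141 bp from control H3K4me3. The longest member of all, 4532 bp on chromosome X (40008963 to 40013495), lay upstream of the neural adhesion gene L1CAM with an H3K4me3 value of 62.2, and its control H3K27me3 of 6.40 had no butyrate counterpart. TLX3, a homeobox gene of sensory neurons, had the fourth longest member (3730 bp, H3K4me3 80.3), with H3K27me3 of 14.9 after butyrate and 37.5 in control and CTCF of 62.0 after butyrate and 27.1 in control.

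Polycomb signal was not lost at most of the members. Of the 4848, 4191 (86.4%; 85.5% to 87.4%) also overlapped a butyrate H3K27me3 interval, against 66.5% (65.2% to 67.7%) of the old H3K4me3 intervals inside control H3K27me3. It was 92.6% for members with an island and 72.6% for those without one. Counted by control region (overlapping H3K27me3 intervals of the libraries joined), 89.2% of the regions with a member had butyrate H3K27me3, against 79.5% of regions without H3K4me3 in either library and 80.1% of all. The regions with a member were longer, with a median control length of 13999 bp against 6998 and 7599 bp. A longer region offers more room for an overlap. The 657 members that had no butyrate H3K27me3 had an island less often (37.9%, against 74.2% of those that had it), were less often at a gene start (32.6% against 39.3%) and had a lower median H3K4me3 value (28.1 against 31.1). Where both libraries had an H3K27me3 interval over a member, the median over members was 12.2 after butyrate and 19.5 in control. The value was lower after butyrate for 3932 and higher for 259 of the 4191. No such count was made for other H3K27me3 intervals, so it has no background to be set against. Control H3K27me3 was part of the rule, and 4155 of the 4848 members lay in the control intervals of highest signal. Among regions of highest control signal, those without H3K4me3 also had a negative median log2 ratio of butyrate over control (-0.29).

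The level was set against other Polycomb chromatin in the same regions, of which 19078 had signal in both libraries. The 2582 regions that held a member had a median average of 10.6 after butyrate and 15.1 in control, a median log2 ratio of butyrate over control of -0.54 (order-statistic 95% interval -0.56 to -0.51). The 2026 regions with control H3K4me3 and no member had 8.32 and 11.4 (log2 ratio -0.44), and the 14453 regions without H3K4me3 in either library had 7.09 and 7.10 (log2 ratio -0.01). The median of all shared regions was -0.09, and how the libraries were scaled is not stated, so the level of these ratios cannot be read by itself. The order of the classes with new and with control H3K4me3 was not kept among regions of higher control signal, as given below. A ratio at least 2-fold lower was found in 403 regions with a member (15.6%), against 215 regions with control H3K4me3 only (10.6%), 45 without H3K4me3 (0.31%) and 3.48% of all shared regions. No region with a member was 2-fold higher.

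The regions with members also had more H3K27me3 in control, which moves with the ratio. In the 25% of shared regions with the highest control signal, the median log2 ratio was -0.65 with a member (n = 2027), -0.67 with control H3K4me3 and no member (n = 1145) and -0.29 without H3K4me3 (n = 1596). In the next 25% these were -0.21, -0.29 and -0.11, and in the lower 50% all 3 classes lay between -0.14 and 0.11. In the upper 50%, regions with new H3K4me3 had ratios close to those with old H3K4me3, and both lay below regions with none. Control signal was still not alike there. In the same order of classes its median was 17.5, 15.0 and 12.5 in the highest 25% and 9.23, 9.09 and 8.68 in the next. A difference between the classes at equal control signal was therefore not shown. The lowest ratios among members with a named gene were -2.29 in a region upstream of AGPAT2, a lipid synthesis gene (9.48 after butyrate, 46.5 in control), -2.10 near MPPED1 (7.81 and 33.5), -2.01 at ICAM5, an adhesion gene of brain neurons (14.1 and 56.9), and -1.78 at PRDM12 (16.2 and 55.8). The members at AGPAT2 and PRDM12 each lay 141 bp from control H3K4me3. The control interval was only 1599 bp at AGPAT2 and 1999 bp at MPPED1, and each average covers the library's own called span. The highest were 0.65 in ZNF423 (10.3 after butyrate, 6.56 in control) and 0.51 at AQP12B (23.6 and 16.5).

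**Figure D3:**
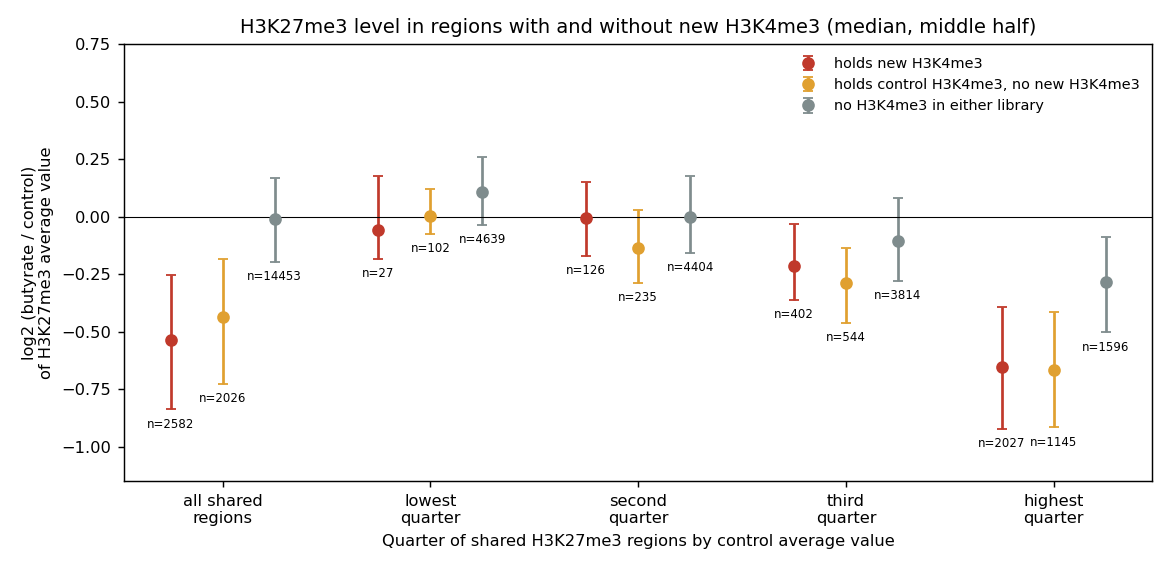
log2 ratio of H3K27me3 average value, butyrate over control, in 3 classes of shared H3K27me3 regions, for all regions and by quartile of control signal; dots are medians, bars span the middle 50% of regions and n counts regions. Regions with new H3K4me3 (red) had a median of -0.54 in all and -0.65 in the highest 25%, next to -0.67 for those with control H3K4me3 only (orange) and -0.29 for those with none (grey).

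Members were concentrated in the strongest Polycomb domains. Of the 26824 control H3K27me3 intervals 2941 (11.0%) held a member, 1933 of them exactly 1, 906 from 2 to 4, and 102 at least 5, and these 102 held 693 members. By control H3K27me3 average, a member was found in 34.7% of the intervals of the highest 25% (median length 10399 bp), in 6.00% and 2.36% of the next ones and in 0.76% of the lowest 25% (5999 bp). The control interval around a member had a median length of 16999 bp, against 7199 bp for all control H3K27me3 intervals, and a longer interval offers more room for a member. The summits lay well inside, at a median of 4176 bp from the nearest edge, with 646 (13.3%) within 1 kb of an edge and 28 outside the interval. Per Mb of control H3K27me3 the count on the 29 autosomes went from 7.91 on chromosome 28 to 26.3 on chromosome 18, and on chromosome X, with 1.68 Mb of control H3K27me3, it was 63.2.

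The 4 control intervals with most members held HOXA and HOXB genes, which set position along the body axis, the gene PAX2 and the genes around FGFR3. The HOXA interval on chromosome 4 (69273200 to 69413199) held 22 members beside 11 control H3K4me3 intervals. The members' H3K4me3 values there went from 18.9 to 59.4 (median 25.7), and H3K27me3 averaged 20.4 after butyrate and 42.1 in control. The HOXB interval on chromosome 19 (38479400 to 38536399) held 18 members and 3 control H3K4me3 intervals, with H3K27me3 of 21.8 after butyrate and 56.6 in control, and 8 of its members overlapped CTCF after butyrate, against 3 in control. PAX2, a paired box gene of kidney and eye development, lay in an interval of 131599 bp on chromosome 26 with 17 members (values from 18.1 to 61.9) and H3K27me3 of 19.4 after butyrate and 28.7 in control. The interval of TACC3, FGFR3 and LETM1 on chromosome 6 held 16 members, of which 14 overlapped H3K4me1 after butyrate and 11 in control and only 5 had an island. Every member of these 4 intervals still overlapped butyrate H3K27me3. The HOXC interval (15 members) and the HOXD interval (12 members), named after their values were seen, had H3K27me3 of 16.9 and 20.7 after butyrate, against 42.5 and 41.1 in control.

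H3K27ac, the mark of active promoters and enhancers, was nearly absent. It overlapped 20 members after butyrate (0.41%; 0.25% to 0.64%) and 42 in control (0.87%; 0.63% to 1.17%), with 12 members having it in both libraries. New H3K4me3 outside H3K27me3 overlapped it at 32.4% after butyrate and 34.9% in control, and old H3K4me3 inside H3K27me3 at 8.15% and 16.5%. Of the 20 members 14 lay in gene bodies, 3 between genes and 3 at gene starts, and 16 had no butyrate H3K27me3. At gene starts, PTP4A3, a protein phosphatase gene, had H3K27ac of 31.2 after butyrate and 26.8 in control, but only 320 of the 2319 bp of its member lay in control H3K27me3. ZDHHC11B had H3K27ac of 20.0 after butyrate and 33.2 in control, with H3K4me1 of 90.7 and 71.9. Neither had an island or butyrate H3K27me3.

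H3K4me1 was more frequent after butyrate at the members and less frequent at the 3 other sets of H3K4me3 intervals. It overlapped 1772 members after butyrate (36.6%; 35.2% to 37.9%) and 1010 in control (20.8%; 19.7% to 22.0%). The share was lower after butyrate elsewhere: 37.1% against 53.3% of new sites outside H3K27me3, 28.4% against 40.2% of old sites inside it and 14.6% against 36.2% of old sites outside it. Of the 3838 members without control H3K4me1, 964 (25.1%) had it after butyrate, where the share over all butyrate H3K4me3 intervals was 8.38%. Of the 1010 with it in control, 202 (20.0%) lost it, where the share over all was 51.3%. The butyrate H3K4me1 library had fewer intervals (47404) than the control library (54071). With both cut to equal numbers the difference at members was 17.1 percentage points, and among intervals of 300 to 500 bp it was 17.9, against -0.53 for old sites inside H3K27me3 of that length. H3K4me1 was also more frequent after butyrate in Polycomb chromatin that had no H3K4me3: of 3479 gene starts with control H3K27me3 and no H3K4me3 in either library, 405 (11.6%) had it after butyrate and 130 (3.74%) in control. The gain was more frequent at members with an island (27.7%) than without (19.4%). In the 808 members with H3K4me1 in both libraries its median value was 45.3 after butyrate and 39.9 in control. The median of all H3K4me1 intervals was also higher after butyrate, 38.6 against 36.5 in control. The 808 members had the higher H3K4me3 value (median 35.6, against 28.8 where neither library had H3K4me1).

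CTCF was more frequent after butyrate at the members, with a share of gains near that of all H3K4me3 intervals. It overlapped 766 members after butyrate (15.8%; 14.8% to 16.9%) and 453 in control (9.34%; 8.54% to 10.2%). Of the 4395 members without control CTCF, 318 (7.24%) had it after butyrate, near the 6.36% of all butyrate H3K4me3 intervals and below the 13.0% of old sites inside H3K27me3. Of the 453 members with control CTCF 5 (1.10%) had none after butyrate, against 4.83% (59 of 1221) of old sites inside H3K27me3 and 13.0% over all butyrate H3K4me3 intervals. The 448 members with CTCF in both libraries had a median CTCF value of 58.9 after butyrate and 45.9 in control, higher after butyrate at 379 of them. No such count was made for other CTCF sites, so it has no background to be set against. The median of all CTCF intervals was 36.2 after butyrate and 37.8 in control, over sites that are not the same in both libraries. The butyrate CTCF library had more intervals (34020, against 29406 in control). With equal numbers of CTCF intervals the difference was 5.18 percentage points at members, 5.85 at old sites inside H3K27me3, 0.02 at new sites and -3.05 at old sites outside it. CTCF after butyrate was more frequent at members between genes (19.3%) and in gene bodies (17.2%) than at gene starts (11.7%).

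**Figure D4:**
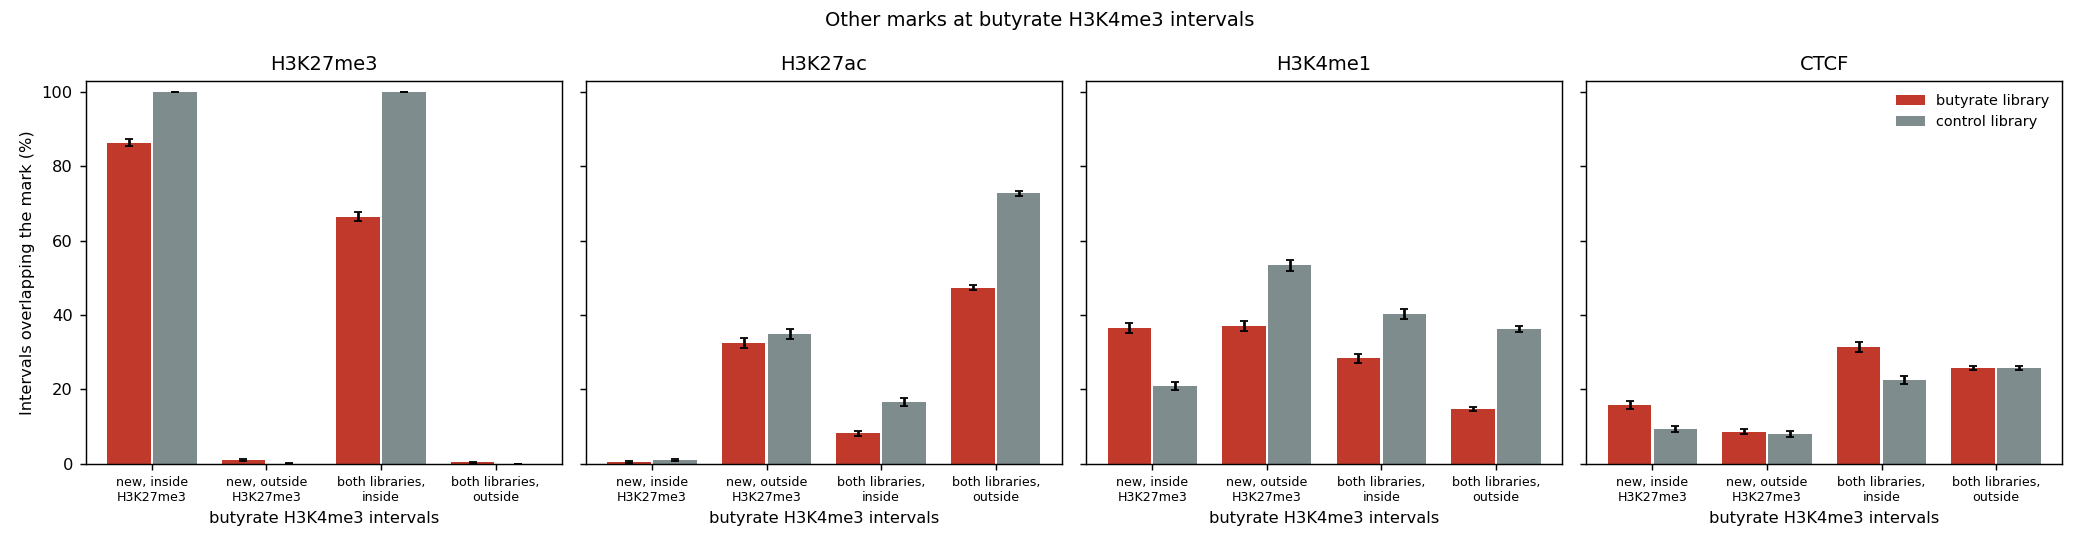
Share of butyrate H3K4me3 intervals that overlap H3K27me3, H3K27ac, H3K4me1 or CTCF in the butyrate library (red) and the control library (grey), for the new intervals inside control H3K27me3 and the 3 other sets; error bars are exact 95% binomial intervals. The control H3K27me3 bars of 100% and 0% follow from how the sets were defined, and H3K4me1 is more frequent after butyrate at the first set (36.6% against 20.8%) and less frequent at the others.

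Counted by gene, 1486 of 23994 gene starts (6.19%) had a member's summit within 2 kb, which is 18.8% of the 7897 starts with control H3K27me3 in the same window. Of the 1486, 959 had no control H3K4me3 at the promoter and 527 had it nearby, and 398 had more than 1 member. Butyrate H3K27me3 reached 902 of the 959 (94.1%) and 439 of the 527 (83.3%). H3K27ac was found at 4 of the 959 after butyrate (0.42%) and 11 in control (1.15%), and at 41 of the 527 after butyrate (7.78%) and 73 in control (13.9%). It was at 12 of the 3479 starts with control H3K27me3 and no H3K4me3 after butyrate (0.34%) and at 34.7% of all starts. Of the 1486 gene symbols, 1232 matched RefSeq (ARS-UCD2.0), 1141 of them as protein-coding genes, 66 as long non-coding RNAs and 24 as microRNAs.

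Regulators of development had members at the largest shares of their Polycomb-marked starts. In the HOX list 21 of 36 genes had a member, out of 31 with control H3K27me3, and all 21 had butyrate H3K27me3. In these dense clusters a single member can count for neighbouring genes. HOXB8 and HOXB6 had the same highest member, as did HOXB3 and HOXB2, so the genes are not separate sites. HOXC13 (68.1), HOXC11 (61.8), HOXC12 (60.7) and HOXA13 (59.4), the posterior genes of the clusters, had the highest H3K4me3 values. Of 105 other homeobox and paired box genes 52 had a member, out of 92 with control H3K27me3. The highest were IRX6 (83.4), TLX3 (80.3), ISL2 (80.1) and PHOX2A (62.6), of which the last 3 are factors of neurons. Control H3K4me3 lay 143640 bp from the member at IRX6, but 825, 542 and 669 bp from those at TLX3, ISL2 and PHOX2A. No control H3K4me3 lay at the promoter for 13 of the 21 HOX genes and 28 of these 52 genes, and the others had it nearby. H3K27me3 at ISL2 was 20.7 after butyrate and 50.4 in control. IRX6 had CTCF after butyrate only (41.2). Of 83 forkhead, SOX, T-box, GATA and bHLH genes 37 had a member, out of 68 with control H3K27me3, 22 of them without control H3K4me3 at the promoter. Among the 37 were BHLHE23 (104), GATA5 (93.2), TBX1 (85.8) and TWIST1 (67.1, with control H3K4me3 192 bp away). TBX1, a regulator of the pharyngeal arches, had H3K27me3 of 26.9 after butyrate and 89.6 in control.

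Genes of nerve cells and ion channels followed. A member lay at 22 of 72 neuronal and synaptic genes (53 with control H3K27me3). After ATCAY, KIF21B and KIF1A the highest was SHANK2 (86.7), a scaffold of excitatory synapses, where control H3K4me3 was 164490 bp away. Of 70 neurotransmitter receptor genes 21 had a member (57 with control H3K27me3), with the dopamine receptor DRD4 (67.2), the nicotinic subunit CHRNA4 (64.3) and the glutamate receptor subunits GRIN3B (54.5) and GRIK1 (53.7) highest. H3K27me3 at DRD4 was 12.7 after butyrate and 38.1 in control. Potassium channels had members at 30 of 70 genes (59 with control H3K27me3), led by KCNK15 (101), KCND3 (76.3), KCNS3 (57.2) and KCNH7 (52.5). Sodium, calcium and TRP channels had them at 16 of 49 (41 with control H3K27me3), with values of 59.9 at SCN4B, 51.6 at TRPC4 and 50.3 at CACNA1A. Cadherins had 11 of 45 (25 with control H3K27me3), led by CDH22 (49.7), CDH7 (41.8), CDH15 (34.3) and CDH8 (30.2). Axon guidance genes had 11 of 68 (39 with control H3K27me3), led by ROBO3 (53.6), SLIT1 (45.1), SEMA6A (42.6) and EPHB1 (42.4). Every one of these 6 lists lay above the 18.8% of all Polycomb-marked starts, at 28.2% to 50.8%. Control H3K4me3 was absent from the promoter at 16 of the 22 neuronal and synaptic genes with a member, 16 of 21 receptors and 18 of 30 potassium channels. The same held for 11 of 16 sodium, calcium and TRP channels, 6 of 11 cadherins and 6 of 11 axon guidance genes. At the others the new interval lay at a promoter that already had control H3K4me3.

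Ligands, cyclic AMP signalling and epithelial genes also had members. Of 85 WNT, FGF, BMP and Hedgehog genes 17 had a member (29.3% of the 58 with control H3K27me3), and the 3 Hedgehog ligands DHH (83.1), IHH (71.7) and SHH (64.2) were highest, before FGF19 (54.0). In the list of cyclic AMP signalling 16 of 76 had one (34.0% of 47), with the phosphodiesterase PDE4C (76.5), the adenosine receptor ADORA2A (63.5), the prostaglandin receptor PTGER3 (58.5) and VIPR1 (51.5) highest. In the list of stratified epithelium, the tissue type of the rumen lining, 13 of 80 had one (33.3% of 39): GRHL2 (54.6), CLDN7 (52.9), the cornified envelope gene CNFN (50.8) and the plakophilin PKP1 (44.9) were highest. GRHL2 had H3K27me3 of 10.9 after butyrate and 26.97 in control, and CLDN7 14.9 and 30.8. No control H3K4me3 lay at the promoter for 12 of the 17 ligand genes with a member, 11 of the 16 cyclic AMP genes and 8 of the 13 epithelial genes. Markers of other cell types had members too, at 4 of 21 fibroblast, smooth muscle and endothelial genes (10 with control H3K27me3), namely DES (49.8), CLDN5 (49.0), MYH11 (41.7) and ESAM (23.7), and 2 of the 18 epithelial identity genes (4 with control H3K27me3) had one, GRHL2 and ESRP2 (32.1).

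Several lists had few or none. Cytokines and chemokines had 3 of 69 (10.3% of the 29 with control H3K27me3): IL11 (28.9), TNFSF11 (27.1) and TSLP (21.7). No member lay within 2 kb of the start of the 38 Polycomb and H3K27 demethylase genes (11 with control H3K27me3), the 13 immune markers (9), the 29 housekeeping genes (1) or the 5 olfactory and taste receptor genes with a start (2). The lists overlap in part, for example GRHL2 is in 2 of them, and the shares are descriptions of these libraries.

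**Figure D5:**
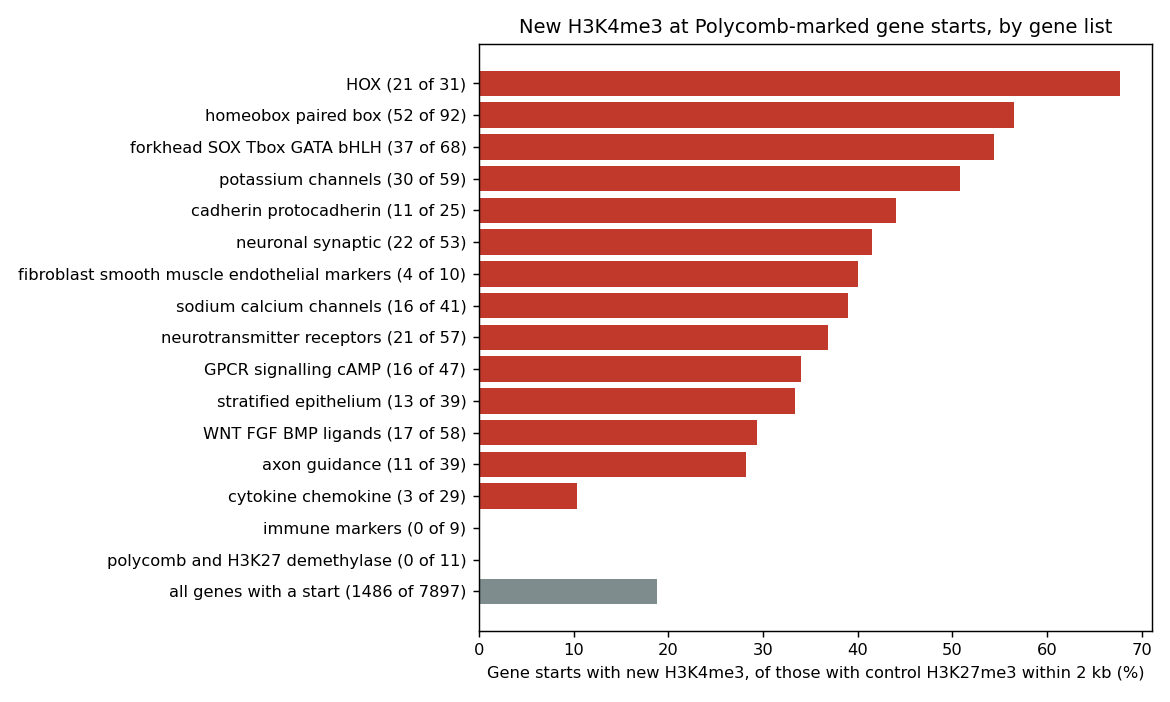
Share of gene starts with control H3K27me3 within 2 kb that had a new H3K4me3 summit in the same window, for each gene list with at least 9 such starts (red) and for all genes (grey), with counts beside the names. Homeobox and other developmental regulators had the highest shares, 67.7% for HOX, against 18.8% for all genes.

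New H3K4me3 went with higher mRNA more often than Polycomb chromatin that gained none. The study's own gene lists of higher and of lower mRNA in these cells 24 h after butyrate, made from replicated RNA sequencing, were used by name and direction only. They hold only genes that passed the paper's thresholds of significance and of fold change, so a gene with a smaller change is not listed. Of their 934 and 332 symbols, 798 and 284 had a gene start used here. Of the 23994 gene starts, 798 (3.33%) were on the higher and 284 (1.18%) on the lower list. Of the 1486 genes with a member, 191 (12.9%; 11.2% to 14.7%) were on the higher and 2 (0.13%) on the lower list. Without control H3K4me3 at the promoter the share with higher mRNA was 10.8% (104 of 959; 8.95% to 13.0%), against 2.36% (82 of 3479; 1.88% to 2.92%) of genes with control H3K27me3 and no H3K4me3 in either library. With control H3K4me3 it was 16.5% (87 of 527; 13.4% to 20.0%), against 9.91% (283 of 2857; 8.83% to 11.1%) of genes with both control marks and no member. Genes with control H3K4me3 and no H3K27me3 were at 1.41% (144 of 10182). The share was 12.5% where the promoter had butyrate H3K27me3 (167 of 1341) and 16.6% where it had none (24 of 145; 10.9% to 23.6%), and these intervals overlap.

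Of the 12 highest members at gene starts 8 were at genes of the higher list, namely ATCAY, OTOP3, ATP2A3, KIF1A, TMEM40, KCNK15, KIF26A and GGT1, and 0 at genes of the lower one. The counts differed by list, with no test of the difference. Of the genes with a member, 0 of 21 HOX genes, 2 of 52 homeobox and paired box genes and 0 of 37 forkhead, SOX, T-box, GATA and bHLH genes were on the higher mRNA list, against 6 of 22 neuronal and synaptic genes, 7 of 30 potassium channels, 5 of 17 WNT, FGF, BMP and Hedgehog genes and 4 of 16 cyclic AMP genes. Neurotransmitter receptors (1 of 21) and axon guidance genes (1 of 11) had low counts as well. The 2 genes with a member and lower mRNA, named after they were counted, were MYH11, smooth muscle myosin (H3K4me3 41.7, H3K27me3 of 9.38 after butyrate and 16.7 in control, CTCF of 55.2 after butyrate only), and TNFRSF12A (29), where control H3K4me3 lay 944 bp away.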

How the data were processed

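The table of called intervals of 10 ChIP libraries, with 1 input, was analysed. Its deposited average and peak values are signal that the authors gave for called intervals only, and how it was scaled between libraries is not given in the sources used here. Per the series' design text reads were of 75 nt, and per the study's methods they were aligned with BWA and peaks called with MACS2 against input. The submitters' processing notes name these tools, Trim Galore 0.4.1 and UMD3.1. H3K27me3 starts lay on a grid of 200 bp. The table holds no read totals, so no precision from depth is given. Island counts and gene distances are as deposited. Coordinates are as deposited, whether from 0 or 1 not being stated.

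Groups came from the labels. Overlap meant at least 1 bp. A member was at a gene start if its summit lay within 2 kb of one. Gene starts for counts by gene were derived from summits and deposited distances, using symbols listed 2 or more times with 90% agreement on the position and leaving out 62 symbols with more than 1 start. H3K27me3 regions joined overlapping intervals of both libraries, with averages weighted by length and log2 ratios without pseudocount. With 1 library per condition no test was run. The members and the 19 gene lists were chosen with earlier results of these data known, and so support nothing by themselves. Named were, without provisional symbols and microRNAs, the 12 highest members at gene starts, 5 in gene bodies, 4 between genes, the 4 longest, the 4 control H3K27me3 intervals with most members, the 4 lowest and 2 highest H3K27me3 ratios, up to 4 members at gene starts by butyrate H3K27ac, up to 4 genes per list and the 2 nearest on each side of the rule. Some genes that met this are not reported here. Alternatives were other overlaps, windows, thresholds, numbers of intervals and scalings. Code was tested on simulated intervals. RefSeq symbols (ARS-UCD2.0) served for names only, and no sequence is printed since no genome of the files' build was used. Python 3.11.15, numpy 2.4.6, pandas 2.3.3, scipy 1.17.1 and matplotlib 3.10.9 were used.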

Additional observations from a re-analysis of the deposited data

How the results depend on the processing

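The number of members was 2971 with a peak value at or above the 25% quantile, and stayed within 1.5 times of 4848 under the other alternatives. The share at a gene start was 28.0% within 1 kb, 53.2% within 5 kb, 40.7% for members above the quantile and 34.8% for those with no control H3K4me3 within 1 kb. For these last 2 choices of members the share with a CpG island was 79.7% and 71.2%, with butyrate H3K27me3 88.6% and 88.8%, with butyrate H3K4me1 41.7% and 38.9%, and with butyrate CTCF 17.7% and 17.2%. With an overlap of 50% of the shorter interval H3K4me1 was found at 33.9% of members after butyrate and 19.4% in control and CTCF at 14.7% and 8.31%. With the stricter intervals of the other mark these were 30.5% and 18.0%, and 13.5% and 8.29%. The difference between butyrate and control kept its sign for H3K4me1 and for CTCF under every alternative run. The median log2 ratio of H3K27me3 was -0.98 from peak values, -0.45 when centred on all shared regions and -0.49 with a pseudocount of 1, and -0.65 in the 25% of regions with most control signal, an alternative chosen after the data were seen, as were equal numbers of intervals of a mark, the length band and other windows for the mRNA lists. Within 1 kb of the start the genes with a member numbered 13 for HOX, 32 for homeobox, 7 for stratified epithelium and 0 for epithelial identity genes, and those with lower mRNA numbered 1. Within 5 kb they numbered 2 for Polycomb and H3K27 demethylase genes and 1 for immune markers, lists with 0 within 2 kb. Of 98 alternative values 62 stayed within the counting interval or 1.5 times, 36 moved and 0 reversed.

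No paired analysis was possible because each mark and condition has 1 library. The absence of replicates, of read totals and of signal outside called intervals limits every value: a new interval near the calling threshold may differ little from its control counterpart, and 1877 of the 4848 members lie under the 25% quantile of peak value.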
